A study of Zea mays with 32 samples.

Results

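The primordia of 2 maize landraces, Jala and Tabloncillo, were compared gene by gene. The comparison used the 8 libraries that carry the genotype label Jala or Tabloncillo, out of 32 libraries from 8 landraces in the series. Each landrace gave 4 libraries, 2 from the fifth and 2 from the ninth leaf, and its level was taken as the mean over both leaves. Genes entered if their normalized count averaged 10 or more in these 8 libraries, which kept 25647 of 39756 genes. Of the rest, 5738 were 0 in all 8 libraries and 8371 were above 0 but under that mean.

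All plants of both landraces were grown at 35 °C, which the labels call heat, and the tissue was the leaf primordium at plastochron stage 4. Polyadenylated RNA was sequenced from directional libraries. The genotype labels are Jala and Tabloncillo, with no allele, transgene or other agent named. The labels do not say whether the libraries of a group came from separate plants or from pools. The spread between replicates may therefore be technical, and the p-values below measure only that spread. In the main test it was pooled over all 32 libraries of the series, not taken from Jala and Tabloncillo alone. Ranked from low to high over the 16 groups, the replicate spread of Tabloncillo came 12 and 14, and that of Jala 5 and 10. A fit to the libraries of these landraces alone, given below, called fewer genes. By its title, the study asked how vein density in the leaf is inherited and how it matters for photosynthesis.

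Landraces are populations that farmers maintain by saving seed, so plants of one share a type but are not genetically uniform. Both landraces come from western Mexico. Jala is known for its very tall plants and long ears, and classical descriptions of Mexican maize place Tabloncillo among its relatives. A plastochron is the time between the start of 1 leaf and the next, so primordia of the same plastochron stage are compared at a like step of their growth. In a young maize leaf the veins are laid down at these early steps, and the leaf later runs C4 photosynthesis in the cells around them. The gene IDs of the table are not paired with names in the sources used here. Genes are therefore given by ID, without function, position or sequence, and the tissue label was not checked against marker genes. In whole primordia, fewer cells of a type and less RNA per cell cannot be told apart.

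The 8 libraries held between 54.9 and 121.0 M recovered reads (whole reads computed back from the normalized counts), against 54.8 to 121.0 M over the 32 libraries. In the Jala libraries the depth ran from 54.9 to 79.9 M and in those of Tabloncillo from 69.3 to 121.0 M. A gene with 3 reads or fewer in a library was taken to be at the floor, which is a normalized count of 1.69 to 3.89 depending on the library and covers counting error only. Between 79.5% and 86.4% of recovered values from 1 to 20 were even, so low values mostly came in steps of 2 reads and 3 reads can stand for fewer independent counts. Folds given as "at least" rest on 3 reads and would be smaller on 3 counts of 2 reads. Replicates lay further apart in Tabloncillo than in Jala: 17.68% of tested genes differed at least 2-fold between the Tabloncillo replicates of the fifth leaf and 17.97% between those of the ninth, against 11.66% and 13.73% in Jala. Across tested genes, which are not independent replicates, a Jala and a Tabloncillo library of the same leaf correlated with a median r of 0.9206 over 8 pairs, and replicates with 0.9521 over 4 pairs. The 8 pairs of 1 landrace and different leaves had a median r of 0.9495. Pairs of different landraces and different leaves had a median r of 0.9171 and reached 0.9337. That highest value was between Tabloncillo, the fifth leaf replicate 1, and Jala, the ninth leaf replicate 2, with 17.05% of genes at least 2-fold apart. To the libraries of its own landrace this Tabloncillo library had an r of 0.9316 to 0.9473, with 17.68% to 22.75% at least 2-fold apart.

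Jala and Tabloncillo differed in 1557 genes over both leaves, with 750 higher (2.92%) and 807 lower (3.15%) in Jala. Together these are 6.07% of the 25647 genes tested by limma, at an adjusted p-value under 0.05, and are referred to as called. Their median absolute log2 difference was 1.81, against 0.21 over all tested genes. Among them 1024 genes differed at least 2-fold, 733 at least 4-fold and 289 at least 16-fold. The largest differences were split evenly between the landraces, with 145 of the 289 higher and 144 lower in Jala. Log2 differences here are Jala minus Tabloncillo in log2(normalized count + 1), which understates the change of low genes.

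In 1173 of the 1557 called genes the 4 Jala libraries lay entirely above or entirely below the 4 Tabloncillo libraries (565 above and 608 below). The remaining 384 had libraries that overlapped. Over all tested genes 2368 did not overlap, which is 9.23%, so complete separation in single genes is also common outside the calls. Fitted to the 8 libraries alone, limma called 646 genes, of which 566 were among the 1557. Without the Jala library of the fifth leaf replicate 1 there were 902, of which 838 were among the 1557.

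**Figure D1:**
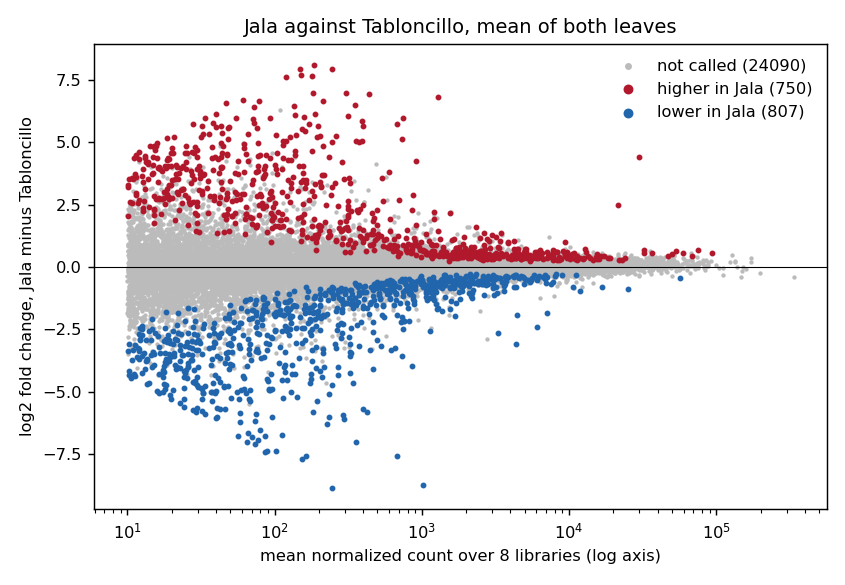
Each point is 1 of 25647 genes, placed by its mean normalized count over the 8 libraries (log axis) and by its log2 difference of Jala minus Tabloncillo over both leaves; red and blue points are the 750 genes called higher and the 807 called lower in Jala. Differences of many-fold lie mostly at means under 1000, and the band of called genes narrows towards high means.

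The share of genes called differed between levels of expression. Of 4219 genes with a mean from 10 to 50, 382 (9.05%) were called, and all 382 differed at least 2-fold. From 100 to 1000 it was 534 of 7488 (7.13%), with a median absolute log2 difference of 1.65. From 1000 to 10000 it was 422 of 10928 (3.86%), and only 57 of these reached 2-fold. Called genes were thus a larger share among genes with means under 1000 than above. The sizes are those of called genes only and say nothing of the other genes of a level. Whether read depth sets these shares was not tested.

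Among the 1296 most abundant genes, averaging 10000 or more, 46 (3.55%) were called, and 40 of the 46 were higher in Jala. Only 2 of the 46 reached 2-fold, and the median absolute log2 difference was 0.44. The count and the direction moved with the scaling of the libraries: 17 of 27 were higher after quantile normalization and 70 of 73 after each library was centred on its median. Single libraries moved the count too: it was 10 higher of 13 called without the Jala library of the fifth leaf replicate 1, and 14 to 22 higher without any of the other 3 Jala libraries, or without Tabloncillo replicate 1 of the fifth leaf or 2 of the ninth. In the 8 libraries alone it was 5 of 7.

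Both of the genes in this class that were called and reached 2-fold were higher in Jala. Zm00001eb319670 had normalized counts of 74590 and 52930 in the fifth leaf of Jala, with 40790 and 44930 in the ninth. Those of Tabloncillo were 1608 and 20440 in the fifth leaf, with 4404 and 252.8 in the ninth. The groups did not overlap, but the 4 Tabloncillo libraries were themselves spread widely, also between replicates of 1 leaf. The log2 difference was 4.40 (SE 0.99, limma adjusted p = 0.00902). It missed the threshold in the fit to the 8 libraries alone (adjusted p = 0.0638), without the Tabloncillo library of the fifth leaf replicate 1 (0.0582) and without that of the ninth leaf replicate 2 (0.0591). The other landraces also fell far apart in this gene: its mean was 53200 in Reventador and 50090 in Nal-tel, close to the 53310 of Jala, but 238.2 in Mushito and 329.4 in Zapalote.

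Zm00001eb101770 had 28110 and 17370 in the fifth leaf of Jala, with 46510 and 52010 in the ninth, against 12710 and 8415 and then 5615 and 2032 in Tabloncillo. All 4 Jala libraries were higher than any Tabloncillo library, with the larger gap in the ninth leaf. The log2 difference over both leaves was 2.48 (SE 0.44, limma adjusted p = 0.00168). The means of the other 6 landraces ran from 7921 in Reventador to 14930 in Mushito, all nearer to Tabloncillo than to Jala at 36000. Single libraries reached 23380 in Mushito, 22430 in Gordo and 21680 in Zapalote, above the lowest of Jala.

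No called gene of this class was at least 2-fold lower in Jala. The called genes with the highest means that were at least 2-fold lower, without overlap, averaged under 10000. Of these Zm00001eb094610 had 1832, 2616, 4127 and 3323 in the Jala libraries and 9841, 9445, 19010 and 6115 in those of Tabloncillo, the fifth leaf first in each case. Its log2 difference was -1.84 (SE 0.30, limma adjusted p = 0.000673). Zm00001eb136500 had 3225, 1123, 1846 and 1526 against 8755, 6602, 4337 and 8303, a log2 difference of -1.92 (SE 0.32, limma adjusted p = 0.000972). In each gene the highest Jala library stayed under the lowest of Tabloncillo. The means of the other 6 landraces were between 6303 and 11260 in Zm00001eb094610 and between 4120 and 10360 in Zm00001eb136500, in each case above Jala. Single libraries fell inside the range of Jala: the lowest of Mushito (3596) and Palomero (3704) in Zm00001eb094610, and of Gordo (2332) and Palomero (2927) in Zm00001eb136500.

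Genes with large differences over both leaves were then taken from those averaging 100 or more, without overlap and with neither landrace at the floor in all 4 libraries. The 2 largest differences in each direction are given. Zm00001eb097590 had a normalized count of 497.6, 378.0, 610.2 and 478.7 in the Jala libraries and of 0, 4.075, 0 and 1.901 in those of Tabloncillo. Means were 491.1 ± 95.2 (SD, n = 4) and 1.49 ± 1.94 (SD, n = 4), with a log2 difference of 7.95 (SE 0.75, limma adjusted p = 3.08e-06). The gene was expressed in each of the other 6 landraces, with means from 45.27 in Palomero to 283.2 in Gordo. Tabloncillo lay below and Jala above the range of these 6 means. Single libraries reached 523.7 in Mushito, 454.5 in Zapalote and 386.4 in Gordo, above the lowest of Jala.

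Zm00001eb230900 was found in fewer landraces. It was at 399.4, 184.1, 608.1 and 238.7 in Jala, while 3 of the 4 Tabloncillo libraries were at 0 and the fourth, replicate 1 of the ninth leaf, at 5.621. The log2 difference was 7.65 (SE 1.10, limma adjusted p = 0.000225). Apart from Jala it was found at a level above the floor mainly in Reventador (mean 257.6, libraries from 3.878 to 681.5). The means of the remaining 5 landraces did not exceed 1.58.

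Among the genes lower in Jala, Zm00001eb243660 had 0, 70.03, 0 and 23.35 in the Jala libraries against 922.6, 882.3, 1239 and 2285 in those of Tabloncillo (log2 difference -7.58, SE 1.57, limma adjusted p = 0.00545). In both leaves of Jala replicate 1 was at 0 and replicate 2 was not. Tabloncillo had the highest mean of the 8 landraces, 1332, followed by Palomero at 475.4. Zm00001eb157760 had 2.257, 0.898, 6.597 and 7.784 in Jala against 416.6, 260.8, 770.6 and 1415 in Tabloncillo (log2 difference -7.03, SE 1.10, limma adjusted p = 0.000501). Here Jala had the lowest mean, since the other 6 landraces had means between 67.65 and 880.7. Single libraries of others were also low: the lowest of Zapalote was at 2.295, inside the range of Jala. These 4 genes were called under every alternative tried, with log2 differences that moved with the pseudocount.

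**Figure D2:**
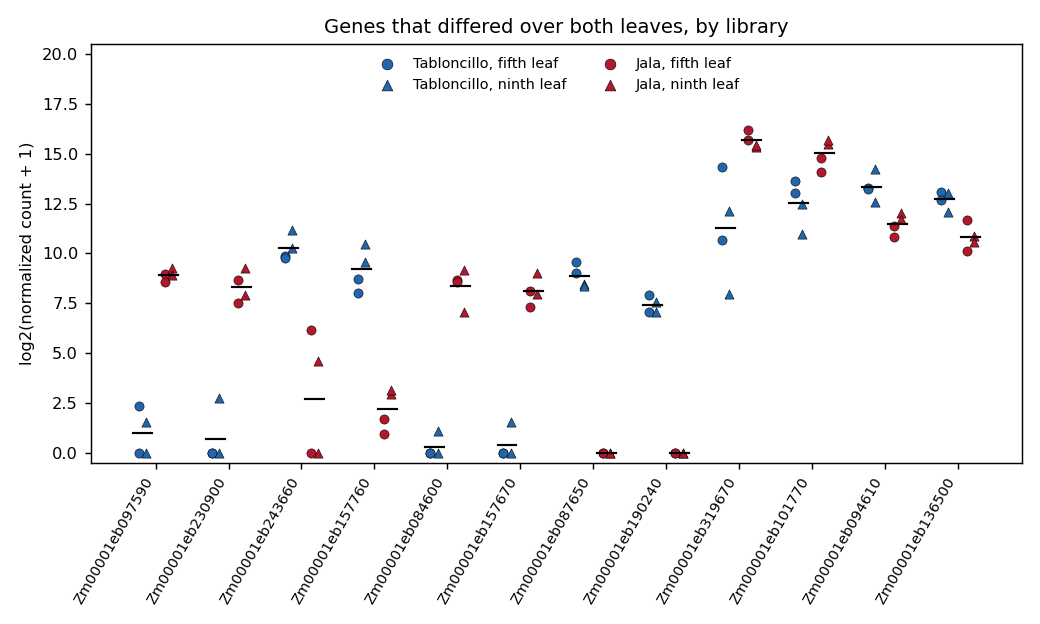
Normalized counts of 12 genes on the log2(value + 1) scale, with 1 point per library (circles the fifth, triangles the ninth leaf) and a bar at the mean of the 4 libraries; blue is Tabloncillo and red is Jala. The groups do not overlap in any of the 12 genes, as the rules that chose them required. The Tabloncillo libraries of Zm00001eb319670 run from 252.8 to 20440.

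Transcripts found in 1 landrace and at the floor in every library of the other were few. Counting a gene when it had at most 3 reads in each of 4 libraries against a normalized count of at least 100 in each of the other 4, there were 6, 3 in each direction. All 6 were also called by limma, against 6.07% of all tested genes, but genes chosen for so wide a gap in the same values were likely to be. The count depends on where the limits are set: 21 genes with a floor of 10 reads, 23 with a level of 50 and 1 with a level of 200. Leaving out 1 library raised it to as many as 11, reached without any of 3 Tabloncillo libraries (the fifth leaf replicate 1 and either replicate of the ninth). The rule must hold in every library, so leaving 1 out can only keep or raise the count.

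Zm00001eb084600 had 407.3, 371.7, 575.1 and 133.6 in the Jala libraries and 2 reads in all over those of Tabloncillo (limma adjusted p = 1.49e-07). The ratio of means was 1323, with a 95% exact Poisson interval from 238 that takes each 2 reads of the low landrace as 1 count and covers only its counting error. It was the one gene of the 6 found in Jala alone, since the means of the other 6 landraces were at most 0.55. Zm00001eb157670 had 158.0, 275.6, 520.1 and 246.5 in Jala, again with 2 reads in all in Tabloncillo (ratio of means 631, interval from 113, limma adjusted p = 1.53e-05). It was present at lower means in Reventador (35.41), Zapalote (55.92) and Gordo (47.9).

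In the other direction Zm00001eb087650 was at 514.9, 768.2, 350.7 and 330.7 in Tabloncillo and had no read in any Jala library, at least 126-fold lower in Jala (limma adjusted p = 0.00021). Zapalote had a mean of 468.8 in this gene, while Gordo was at 0, as Jala was. Zm00001eb190240 was at 132.6, 239.4, 187.2 and 134.0 in Tabloncillo with no read in Jala, at least 44.5-fold lower (limma adjusted p = 7.9e-06). DESeq2 alone among the alternatives did not call Zm00001eb190240 (adjusted p = 0.362). The means of the other 6 landraces were at most 2.48, so this transcript was found at a level above the floor mainly in Tabloncillo.

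The remaining genes of this kind, named after their values were seen, were Zm00001eb011850 and Zm00001eb126600. Zm00001eb011850 had 388.1, 195.7, 250.7 and 362.0 in Jala and at most 1 read in a Tabloncillo library (limma adjusted p = 0.000397), and the other 6 landraces had means from 12.83 to 76.79. Zm00001eb126600 had 108.1, 152.8, 150.6 and 111.2 in Tabloncillo and at most 2 reads in a Jala library (limma adjusted p = 0.000378), and Palomero had a mean of 105.1. Transcripts on in only 1 of the landraces compared were thus mostly present in some of the others, but at lower means. By the level that chose these genes, required in every library of a landrace, few were on elsewhere. All 3 found in Jala and 2 of the 3 found in Tabloncillo reached it in none of the other 6 landraces.

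Single libraries show how much of this arises within a landrace. Between replicates, 22 genes of the fifth leaf and 58 of the ninth leaf of Jala were at the floor in 1 library and at 100 or more in the other. In Tabloncillo it was 43 and 44. Between 1 Jala and 1 Tabloncillo library of the same leaf the number was 93 to 154 over the 8 possible pairs. The smallest number between the landraces was therefore above the largest within them, although replicates of 1 group already differed in this way in 22 to 58 genes.

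To ask whether the landrace difference was the same in each leaf, it was tested in the fifth and the ninth leaf separately, 2 libraries against 2. In the fifth leaf 464 genes (1.81% of those tested) were called by limma, with 222 higher (0.866%) and 242 lower (0.944%) in Jala. In the ninth leaf there were 763 (2.98%), with 418 higher (1.63%) and 345 lower (1.35%). Each leaf taken alone thus gave fewer calls than the mean over both. Single libraries moved these counts. In the fifth leaf 119 genes were called without the Tabloncillo replicate 1, and 126 and 171 without the Jala replicates 1 and 2. In the ninth leaf there were 403 without the Tabloncillo replicate 2, and 262 and 193 without the Jala replicates 1 and 2. The tool mattered too: edgeR called 217 and 381 genes, and DESeq2 1015 and 1488.

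The leaves come from different libraries, so a difference called in 1 leaf can be read in the other. Of the 464 genes called in the fifth leaf, 409 (88.1%) had the same direction in the ninth leaf, against 54.2% of all tested genes. The median log2 difference of the 464 was 3.49 in the fifth leaf, where they were chosen, and 1.62 in the same direction in the ninth. Of the 763 genes called in the ninth leaf, 636 (83.4%) had the same direction in the fifth, with a median of 0.80 there and 2.26 in the ninth leaf. Genes called in 1 leaf were therefore mostly shifted the same way in the other. Leaving out 1 library gave 70.65% to 90.67% for the genes called in the ninth leaf, the lowest without its Tabloncillo replicate 1.

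The share for genes called in the fifth leaf rested on 1 library more than on the others. Without the Tabloncillo library of the fifth leaf replicate 2, so that replicate 1 alone stood for that group, 690 genes were called in the fifth leaf and 60.4% of them kept their direction in the ninth, against 49.2% of all tested genes. Without replicate 1 of the same group, 119 genes were called and 92.4% kept their direction. Leaving out any of the other 6 libraries gave 82.7% to 91.3%. When each leaf was fitted on its own 16 libraries, a choice made after seeing the data, 227 of 245 genes (92.7%) kept their direction.

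Called in each leaf were 172 genes, which is 37.1% of those called in the fifth and 22.5% of those called in the ninth leaf. In 171 of the 172 the direction was the same. Among the 1557 genes called over both leaves, 756 were called in neither leaf alone, where only 2 libraries stood against 2. The exception, named after its values were seen, was Zm00001eb208130. It stood at 45.13 and 45.79 in Jala against 0 and 2.038 in Tabloncillo in the fifth leaf, and at 0 and 7.784 against 46.09 and 79.83 in the ninth. The change of direction itself did not pass the limma threshold (log2 difference between leaves -9.12, adjusted p = 0.0866).

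**Figure D3:**
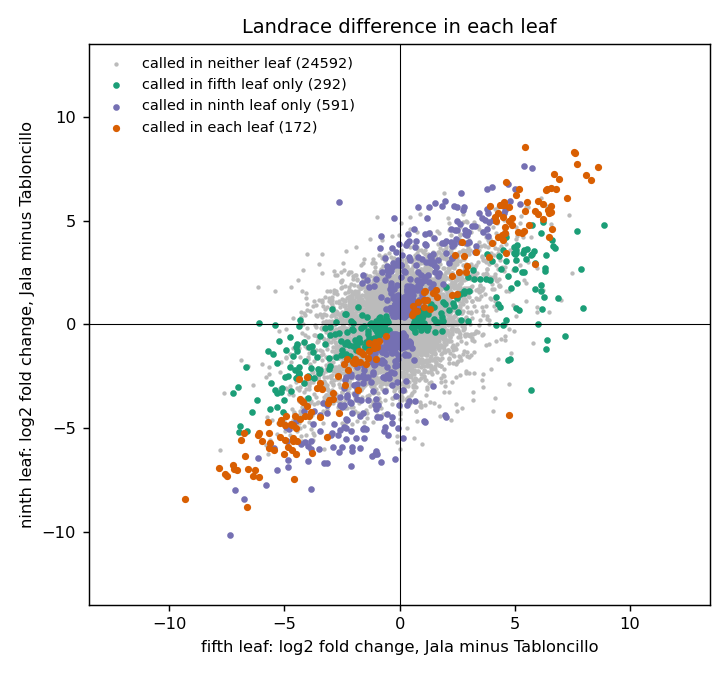
Each point is 1 of 25647 genes, placed by its log2 difference of Jala minus Tabloncillo in the fifth leaf (x) and in the ninth leaf (y), and coloured by the leaf in which it was called. The 172 genes called in each leaf lie along the diagonal except 1, while genes called in 1 leaf only reach towards 0 on the other axis.

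Genes with a call in 1 leaf only mostly did not pass the interaction test, which asks whether the landrace difference is unequal between leaves. Its standard errors are larger than those within a leaf, so a miss does not show that the differences were equal. Zm00001eb015410 had 2696 and 2691 in Jala against 9.826 and 2.038 in Tabloncillo in the fifth leaf (log2 difference 8.88, SE 2.13, limma adjusted p = 0.0336). In the ninth leaf it had 3034 and 1314 against 9.555 and 501.8 (adjusted p = 0.234), where 1 Tabloncillo library stood far above the other 3 of its landrace. Zm00001eb371560 had 275.3 and 225.4 against 0 and 0 in the fifth leaf, at least 81.9-fold higher in Jala (limma adjusted p = 0.00939). In the ninth leaf it had 233.1 and 49.3 against 49.46 and 75.08, where the groups overlapped. The interaction test gave a limma adjusted p of 0.629 and 0.244 for these genes. In Zm00001eb371560 the landrace difference changed by -7.16 on the log2 scale (SE 2.20, limma unadjusted p = 0.00389).

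The genes lower in Jala in the fifth leaf behaved in the same manner. Zm00001eb434420 had 6.77 and 1.796 in Jala against 327.2 and 1073 in Tabloncillo (log2 difference -6.99, SE 1.53, limma adjusted p = 0.019), and in the ninth leaf 8.796 and 7.784 against 140.5 and 802.1 (adjusted p = 0.0681). Zm00001eb134680 had 2.257 and 3.591 against 659.3 and 341.3 (log2 difference -6.94, SE 1.56, limma adjusted p = 0.0224), and in the ninth leaf 15.39 and 23.35 against 402.4 and 875.3 (adjusted p = 0.0929). In neither leaf did the landraces overlap in these genes, which their choice required for the fifth leaf only. How often 2 libraries lie apart from 2 in a leaf over all tested genes was not counted. Each of the 4 genes missed the threshold under 5 or more of 20 alternatives, with adjusted p-values up to 0.204. None changed sign, which their choice without overlap in the fifth leaf largely set in advance.

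In the ninth leaf Zm00001eb108140 stood at 691.6 and 882.2 in Jala against 4.496 and 1.901 in Tabloncillo (log2 difference 7.61, SE 1.63, limma adjusted p = 0.0153), and in the fifth leaf at 450.2 and 773.0 against 13.76 and 12.23 (adjusted p = 0.103). Zm00001eb182720 had 411.2 and 173.9 in the ninth leaf of Jala and 4 reads in all in the Tabloncillo libraries of that leaf (ratio of means 193, interval 53.5 to 1597, limma adjusted p = 0.00585). In the fifth leaf it had 628.5 and 126.6 against 3.93 and 22.41 (adjusted p = 0.0589). Neither gene overlapped between the landraces in any leaf, which their choice required for the ninth leaf only.

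Lower in the ninth leaf of Jala were Zm00001eb204350 and Zm00001eb067520. Zm00001eb204350 had no read in any of the 4 Jala libraries, against 577.8 and 2202 in the ninth leaf of Tabloncillo, at least 357-fold lower in Jala (limma adjusted p = 0.0085). The fifth leaf of Tabloncillo held 3.93 in replicate 1 and 5425 in replicate 2, so 1 library of this landrace lacked the transcript almost entirely. No other landrace had a mean above 1.98. Zm00001eb067520 had 2.199 and 0 in Jala against 678.4 and 300.3 in Tabloncillo in the ninth leaf, where Jala had 2 reads in all. The mean was 445 times lower in Jala (interval from 79.9, limma adjusted p = 0.0359). In the fifth leaf it was at 0 in both Jala libraries, against 84.5 and 233.3. Adjusted p-values for the ninth leaf ran up to 0.234 over the alternatives for these genes, and 1 to 8 of 20 alternatives missed the threshold for each of the 4.

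An interaction term asked whether the landrace difference itself changed from the fifth to the ninth leaf. By limma 2 genes passed (0.0078%), 1 in each direction (0.0039% each), with 3008 at an unadjusted p under 0.05. Zm00001eb149650 was at 479.5 and 219.1 in the fifth leaf of Jala and at 15.39 and 41.52 in the ninth. In Tabloncillo it was at 508.0 and 885.3 and then at 1412 and 2357, higher in the ninth leaf where Jala was lower. The landrace difference on the log2 scale was -1.05 in the fifth leaf but -6.11 in the ninth, a change of -5.07 (SE 0.79, limma adjusted p = 0.0463). The other 6 landraces had means from 700.1 to 3190, above the 188.9 of Jala. The lowest libraries of Mushito (336.5) and Zapalote (431.4) were inside the range of Jala.

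Zm00001eb146880 stood at 4151 and 4011 and then at 6039 and 6879 in Jala, and at 5889 and 4377 and then 3843 and 3784 in Tabloncillo. The landrace difference changed by 1.07 on the log2 scale (SE 0.17, limma adjusted p = 0.0463). The next genes by p-value missed the threshold with an adjusted p of 0.0866. Zm00001eb216920 had 1340 and 1221 and then 1738 and 2010 in Jala, against 1929 and 1478 and then 1022 and 1201 in Tabloncillo. Zm00001eb122030 had 2427 and 2884 and then 2210 and 1739 in Jala, against 1902 and 2250 and then 4172 and 3372 in Tabloncillo.

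The number of interaction genes moved with the model and with single libraries. It was 0 under edgeR (3048 at an unadjusted p under 0.05), under robust eBayes, with centred libraries, with a replicate block and in the 8 libraries alone, and 261 under DESeq2. It was 325 without the Tabloncillo library of the fifth leaf replicate 2, 95 without that of the ninth leaf replicate 1, 21 without that of the ninth leaf replicate 2, and 0 to 6 without any of the other 5. Where replicate 2 of the fifth leaf was left out, replicate 1 alone was the Tabloncillo group of that leaf and was assumed to vary like the other groups.

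**Figure D4:**
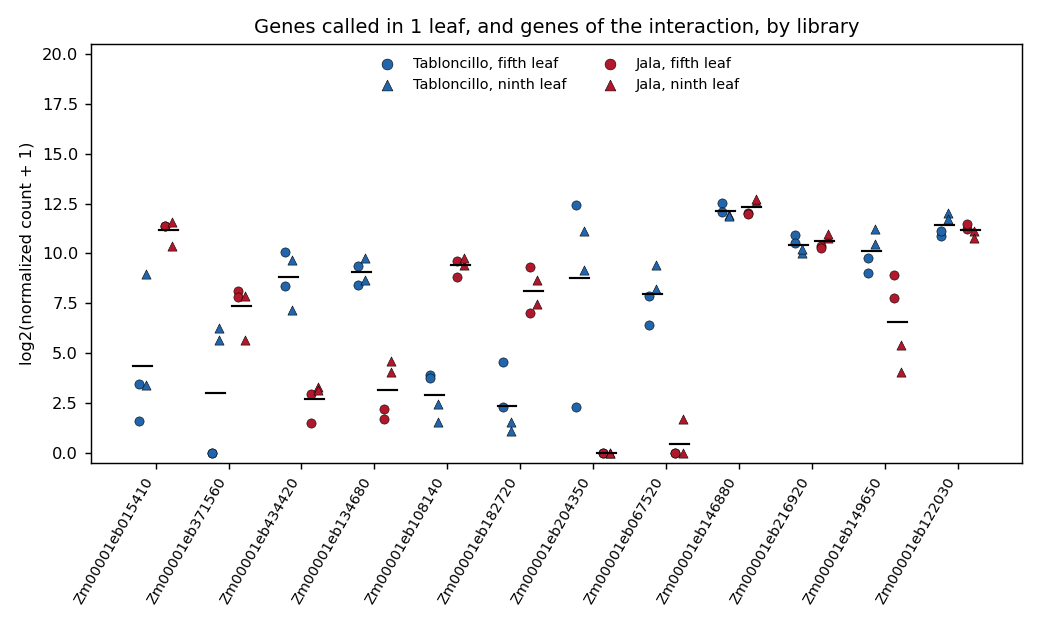
Normalized counts of 12 genes on the log2(value + 1) scale, with 1 point per library (circles the fifth, triangles the ninth leaf) and a bar at the mean of the 4 libraries; blue is Tabloncillo and red is Jala. The first 8 genes were called in 1 leaf and chosen for no overlap there. In the other leaf the landraces also lie apart except in Zm00001eb371560. For Zm00001eb204350 this rests on 3.93 in the lower Tabloncillo library against 0 in Jala. How often 2 libraries lie apart from 2 over all tested genes was not counted. In the last 4 genes the order of the landraces changes or widens between leaves.

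Of the summed squares of all tested genes in the 8 libraries, landrace held 36.0%, leaf 13.9%, their interaction 11.5% and replicates 38.6%. Per degree of freedom the mean square was 1.73 for landrace, 0.667 for leaf, 0.553 for the interaction and 0.463 for replicates. Landrace therefore stood well above the spread between replicates, and the interaction only slightly.

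The other 6 landraces show where Jala and Tabloncillo lie among maize of this series, and they took no part in choosing the calls other than through the shared spread. Of the 1557 called genes, Jala alone lay outside the range of the 6 means in 535 (34.4%) and Tabloncillo alone in 433 (27.8%). In 283 genes (18.2%) each lay outside, and in 306 (19.7%) neither did. Over all tested genes the corresponding shares were 16.6%, 17.8%, 11.5% and 54.1%. A call requires Jala and Tabloncillo to lie apart, so the smaller share with neither outside follows at least in part from that choice. Tabloncillo was the nearer to the median of the 6 in 842 called genes and Jala in 715 (45.9%, against 50.6% over all tested genes). For genes that differed at least 2-fold, Jala was the nearer in 445 of 1024 (43.5%). The direction of the difference made little odds: Jala was the nearer in 45.6% of the genes higher and in 46.2% of those lower in Jala.

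Each of the 28 pairs of landraces was also compared in 1 common set of 26156 genes that averaged 10 or more in the 32 libraries. Jala against Tabloncillo gave 1477 calls (5.65%), more than 5 pairs and fewer than 22. The median over pairs was 2134, from 458 between Mushito and Palomero to 5384 between Reventador and Palomero. Of the 7 pairs that hold Jala, the one with Tabloncillo had the fewest calls, followed by Zapalote with 1537. Under 12 alternatives this order failed once, without the Jala library of the fifth leaf replicate 2, when 1 other Jala pair had fewer. Of the 7 that hold Tabloncillo, Mushito (1378) and Zapalote (1406) had fewer. This count of 2 differed under 7 of the 12 alternatives: it was 0 under 6 of them (quantile normalization, and without any of the 4 Jala libraries or the Tabloncillo library of the fifth leaf replicate 1) and 1 without the Tabloncillo library of the ninth leaf replicate 2. The pairs share libraries, so their counts are a description and were not tested against each other. Leaving out a library takes data only from the pairs that hold its landrace. Jala pairs were thus on equal terms only without a Jala library, and Tabloncillo pairs only without a Tabloncillo library. Any other omission took data from Jala against Tabloncillo but not from the pairs set beside it. In the range that follows, each omission did so relative to most of the 28 pairs. Under a pseudocount of 0.1 or 10, quantile normalization, edgeR and the omission of any 1 of the 8 libraries, between 22 and 26 pairs had more calls.

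**Figure D5:**
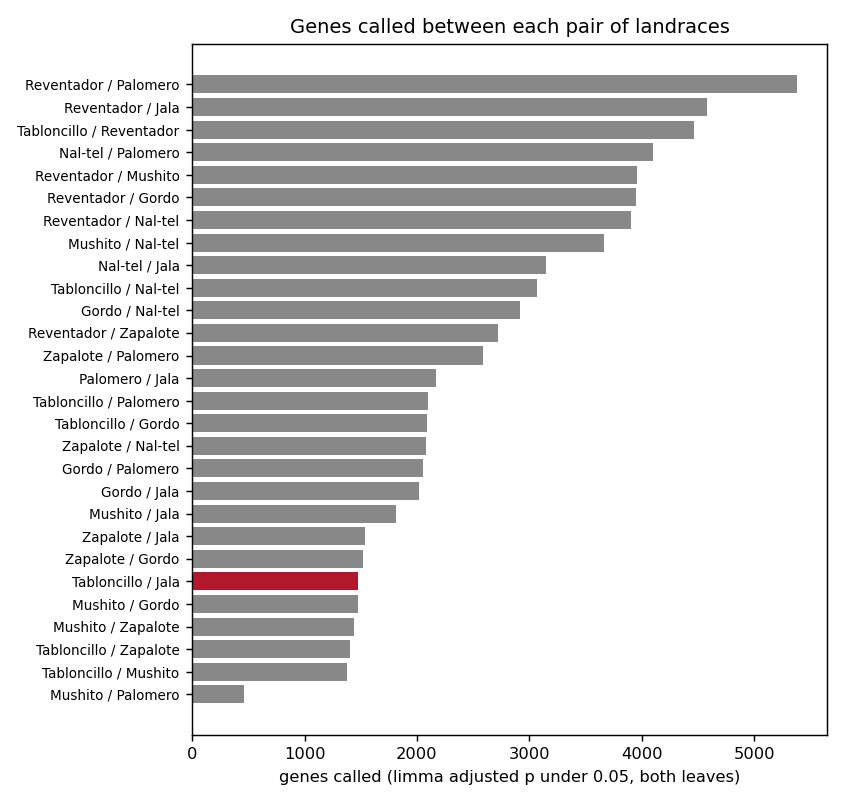
Bars give the number of genes called by limma (adjusted p under 0.05, mean of both leaves) for each of the 28 pairs of landraces. Tabloncillo against Jala, in red, is the sixth lowest with 1477 genes, and pairs with Reventador or Nal-tel fill most of the upper places.

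Genes found at the floor in 1 landrace and at 100 or more in the other numbered 6 here, against a median of 11.5 over the 28 pairs and a range of 2 to 26, and 3 pairs had fewer. With Jala held in common the counts ran from 6 with Tabloncillo to 26 with Palomero.

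IDs of this annotation are numbered along the chromosomes, so neighbouring numbers are mostly neighbouring genes. Of the 1557 called genes, 149 (9.57%) were followed in ID order by another called gene, against 6.07% of tested genes that were called. In 100 of these 149 (67.1%) both differed in the same direction. Runs of at least 3 successive tested genes called in 1 direction numbered 10, and the longest held 4 genes. In 256 windows of 100 successive genes the number called ran from 1 to 16, with a median of 6, so called genes were spread over the whole range of IDs. Overlapping neighbours that share reads could not be told from separate genes here.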

How the data were processed

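The deposited table holds normalized counts of 39756 genes in 32 libraries (16 groups of 2), a signal that the authors made; the submitters' processing notes name STAR, featureCounts and DESeq2 without versions, and the genome build and annotation are not given in the sources used here. Within each library 100% of the values were whole multiples of 1 step (tolerance 0.01 of a step), so whole reads were recovered by division and used for floors, edgeR and DESeq2. Intervals and floors cover counting error only, since reads are not independent molecules. Whether reads from alleles of both landraces align equally well was not tested.

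The main test was limma 3.58.1 (R 4.3.3) on log2(normalized count + 1), with 16 group means over all 32 libraries, 16 residual degrees of freedom, eBayes with an intensity trend, and Benjamini-Hochberg adjustment over the 25647 genes averaging 10 or more in the 8 libraries (threshold 0.05). Contrasts were Jala minus Tabloncillo over both leaves, in each leaf, and their difference between leaves. Alternatives were DESeq2 1.42.0, the edgeR 4.0.16 quasi-likelihood test with TMM, pseudocounts of 0.1 and 10, a filter of 50 or none, quantile normalization, centring, robust eBayes, a replicate block, the 8 libraries alone, each leaf alone (added after seeing the data) and leaving out each library. The scripts were tested on simulated counts. Python 3.11.15 with pandas 2.3.3 and matplotlib 3.10.9 did the rest.

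Genes with names in the text are, per heading, at most 2 in each direction: the largest changes among called genes averaging 100 or more without overlap (over both leaves with neither landrace at the floor, in 1 leaf with no call in the other), the smallest interaction p-values, the highest means among transcripts of 1 landrace, and the highest means among called genes changed at least 2-fold without overlap. A gene named under an earlier heading was passed over. The comparison, lists and tests were chosen with earlier results of these data known. Of the IDs, 0 matched the RefSeq table at hand (Zm-B73-REFERENCE-NAM-5.0), so planned lists of named genes and marker genes were not run.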

Additional observations from a re-analysis of the deposited data

Results flagged for a closer look

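In 4 of 44 sets of 4 libraries examined, a library lay far from the other 3 of its landrace by Dixon's criterion. The criterion is a gap over 0.829 of the whole range, which chance gives in about 1 of 20 sets of normally distributed values. Counts near 0 are not of that kind: a set at 0 in all but 1 library passes by construction. All 4 were in Tabloncillo. The genes among them were named as higher in Jala, so their low values in Tabloncillo came with that choice. The ninth leaf replicate 1 held 121.0 M recovered reads, against 69.3 to 73.1 M in the other 3 libraries. Zm00001eb230900 was at 5.621 in that library and at 0 in the others. Zm00001eb015410 was at 501.8 in the ninth leaf replicate 2 and at most 9.826 elsewhere in the landrace. Zm00001eb182720 was at 22.41 in the fifth leaf replicate 2 and at most 3.93 in the other 3.

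In 2 genes the difference between the landraces was unequal between the leaves by limma's interaction test. Zm00001eb149650 changed by -5.065 on the log2 scale and Zm00001eb146880 by 1.072, each with an adjusted p of 0.0463. Over 19 alternatives the adjusted p ran from 6.5e-07 to 0.653 in Zm00001eb149650 and from 6.08e-06 to 0.653 in Zm00001eb146880, under the threshold in 11 and in 9 of them. The sign was the same under all 19, but the filters, robust eBayes, the replicate block and the 8 libraries alone leave the change itself unaltered.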

How the results depend on the processing

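Fitted to the 8 libraries alone, 646 genes were called over both leaves, 80 in the fifth leaf, 110 in the ninth and 0 for the interaction (1926 at an unadjusted p under 0.05); fewer libraries then set the spread, and 98.75% of the 80 kept their direction. A mean of at least 50 gave 286 and 506 in the separate leaves, edgeR 217 and 381, DESeq2 1015 and 1488 (81.08% of the 1015 keeping direction), and the fifth leaf on its own 16 libraries 245 (92.65% keeping direction). With no filter 83.83% kept direction. For the interaction the count was 5 with pseudocount 10, 8 with no filter, 4 after quantile normalization, 261 under DESeq2, and 0 with centred libraries, robust eBayes, the replicate block or edgeR (2948, 2969, 3033 and 3048 at an unadjusted p under 0.05). Transcripts of 1 landrace numbered 21 with a floor of 10 reads, 23 with a level of 50 and 1 with a level of 200. Where not stated, the cause was not tested.

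Over the fits that left out 1 library, the ranges were 902 to 1336 genes over both leaves, 119 to 690 in the fifth leaf, 193 to 853 in the ninth, 0 to 325 for the interaction, 60.43% to 92.44% for the direction kept, 6 to 11 transcripts of 1 landrace and 24 to 26 pairs with more calls. Without the Tabloncillo library of the ninth leaf replicate 2, 403 genes were called in the ninth leaf, 70.7% of them higher in Jala against 54.8% with all libraries. Among 464 values of the 24 named genes, 391 stayed on their side of the threshold with their sign, 67 lost the call, 6 gained it and 0 reversed. The 12 named for the difference over both leaves lost it in 4 of 228. That 0 reversed was largely set in advance. Genes chosen without overlap keep their sign when 1 library is left out. Filters, robust eBayes, the replicate block and the 8 libraries alone leave the log2 difference itself unchanged.

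Samples share only a replicate number: over the 6 pairs of groups, deviations of libraries with equal number correlated at -0.199 (Jala, the ninth leaf, with Tabloncillo, the fifth) to 0.126 (Tabloncillo, both leaves), and between the landraces at -0.035 in the fifth leaf alone and -0.022 in the ninth alone. With the number as a replicate block, 1555, 439, 727 and 0 genes were called over both leaves, in the fifth leaf, in the ninth leaf and for the interaction. Low genes are limited by the floor of 3 reads.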
